A study of Mus musculus with 6 samples.

Results

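Genes of major histocompatibility complex (MHC) class II antigen presentation and genes of leukocytes were followed across primary cultures of mammary epithelium, named MEC, and lines of tumor cells labelled as knockouts of JNK, named ME KO. The 10 genes were *Cd74*, *H2-Aa*, *H2-Ab1*, *H2-Eb1*, *Ciita*, *Ptprc*, *Csf1r*, *Cd68*, *Laptm5* and *Tyrobp*, taken by symbol from a table of 37753 entries with values, and each symbol was found. RNA was sequenced from 3 MEC preparations (MEC 1, 2 and 3) and from ME KO lines 199, 233 and 336, with 1 library each. Each MEC preparation was made from 3 to 5 virgin females aged 10 to 12 weeks of genotype WAPCre+, and the RNA came from a primary culture on collagen I in medium with serum, EGF and insulin. The ME KO lines (labelled Mapk8KO Mapk9KO Cre+) were grown out of tumors of parous mice, passed 2 times on collagen I and then kept on ordinary dishes, and the strain of all samples was C57/Bl6J. The Cre transgene is driven by the promoter of whey acidic protein, which lactation turns on in luminal cells. Genotype, tumor origin, the animals' history and time in culture changed together between the groups and cannot be told apart. Each library stood for a separate preparation or line.

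Class II molecules are pairs of an alpha and a beta chain that display peptides from the endocytic pathway to CD4+ T cells. The invariant chain CD74 guides these pairs through the cell, and the transactivator CIITA, which binds no DNA itself, turns on their genes together through factors that sit on the X and Y boxes of their promoters. Macrophages, dendritic cells and B cells carry class II constitutively, and epithelial cells can acquire it under interferon gamma. The other genes mark leukocytes: CD45 (*Ptprc*) is a phosphatase on the surface of nucleated blood cells, CSF1R the receptor that macrophages need for survival, TYROBP the adaptor that signals for myeloid and NK cell receptors, LAPTM5 a lysosomal protein of blood cells, and CD68 a lysosomal glycoprotein abundant in macrophages. The question was whether both kinds of gene were lower together in the tumor lines.

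The 3 class II chain genes lie within 59.0 kb of chromosome 17 on GRCm38, *H2-Ab1* at chr17:34257689-34269419 and *H2-Eb1* at chr17:34305867-34316674 on the plus strand, with *H2-Aa* at chr17:34282744-34287823 on the minus strand between them. *Ciita* lies on chromosome 16, *Ptprc* on chromosome 1, *Cd68* on chromosome 11 and *Tyrobp* on chromosome 7. RefSeq promoter entries (GRCm38.p6) were matched for 5 of the 10 genes. The 130 bases before the start of *H2-Aa* (chr17:34287824-34287953, minus strand) and *H2-Eb1* (chr17:34305737-34305866, plus strand) are shown because these neighbouring class II genes differed in the tumor lines. *Cd68* (chr11:69666171-69666300, minus strand) is shown as a leukocyte gene that was high in 1 line. Capitals mark ATTGG, the Y box core, and GCAAC, an X box core, on either strand.
H2-Aa: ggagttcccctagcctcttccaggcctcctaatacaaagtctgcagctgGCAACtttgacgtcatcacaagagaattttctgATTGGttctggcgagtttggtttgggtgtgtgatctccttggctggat
H2-Eb1: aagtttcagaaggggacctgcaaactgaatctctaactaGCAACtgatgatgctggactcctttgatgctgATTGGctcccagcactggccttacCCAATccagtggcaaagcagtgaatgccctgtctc
Cd68: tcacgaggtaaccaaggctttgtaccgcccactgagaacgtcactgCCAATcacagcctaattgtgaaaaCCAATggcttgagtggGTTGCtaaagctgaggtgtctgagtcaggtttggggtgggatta

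In *H2-Aa* and *H2-Eb1*, GCAAC on the sense strand stood 81 and 91 bases before the start, and ATTGG followed at 48 and 59 bases. In both the Y box core was part of CTGATTGG, which 3.83% of the 32851 promoters held within 250 bases before the start. ATTGG alone was in 33.8% of them and GCAAC in 29.9%, on either strand. The longer X box core AGCAAC, in 12.2% of promoters, was found in *H2-Eb1* and *Cd68*. The letters GCAAC and CTGATTGG were chosen after these sequences were seen. GAGGAA, the core that PU.1 binds, was in 23.3% of promoters and in those of *Ptprc*, *Laptm5* and *Cd68*, while GAAANNGAA, an interferon regulatory factor motif found in 7.13%, was in none of the 5. These matches describe letters only.

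Values are FPKM, fragments scaled by transcript length and library size, which allow levels of different genes to be compared per length. The read numbers behind them are unknown, so no counting interval could be given. *Mapk8*, encoding JNK1, was 23.1, 25.1 and 19.2 FPKM in MEC 1, 2 and 3 and 5.93, 3.12 and 1.37 FPKM in lines 199, 233 and 336. *Mapk9*, encoding JNK2, was 21.5 to 24.4 FPKM in MEC and 3.07 to 7.62 FPKM in the lines, so that both targeted genes were lower in each line labelled as their knockout. Their calls did not survive leaving out any 1 MEC library (adjusted p between 0.0538 and 0.0762 by limma). The summed FPKM of a library was 557991 to 638365, and 14 genes that every cell uses were detected in each library, at 12.7 FPKM or more. The labels give no sequencing batch. Genes were called where limma on log2(FPKM + 1) gave a Benjamini-Hochberg adjusted p under 0.05 and a log2 fold change beyond 0.75. Of 12461 genes with a mean of at least 1 FPKM, 905 (7.26%) were called lower and 329 (2.64%) higher in ME KO, for 9.9% in all. Quantile normalization moved the median of all genes to 0.10 (log2) and gave 783 lower and 477 higher calls.

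Class II and leukocyte genes were lower together for most of the 10 genes, but not for all and not to the same depth in each line. In 7 of the 10, every ME KO line was below every MEC library. Such a separation was found for 16.7% of the 21813 entries above 0 in some library. The 7 were *Cd74*, *H2-Aa*, *H2-Ab1*, *Ptprc*, *Csf1r*, *Laptm5* and *Tyrobp*. The exceptions were *H2-Eb1*, with lines 199 and 233 above MEC, *Cd68*, with line 336 above MEC, and *Ciita*, near 0 throughout.

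**Figure D1:**
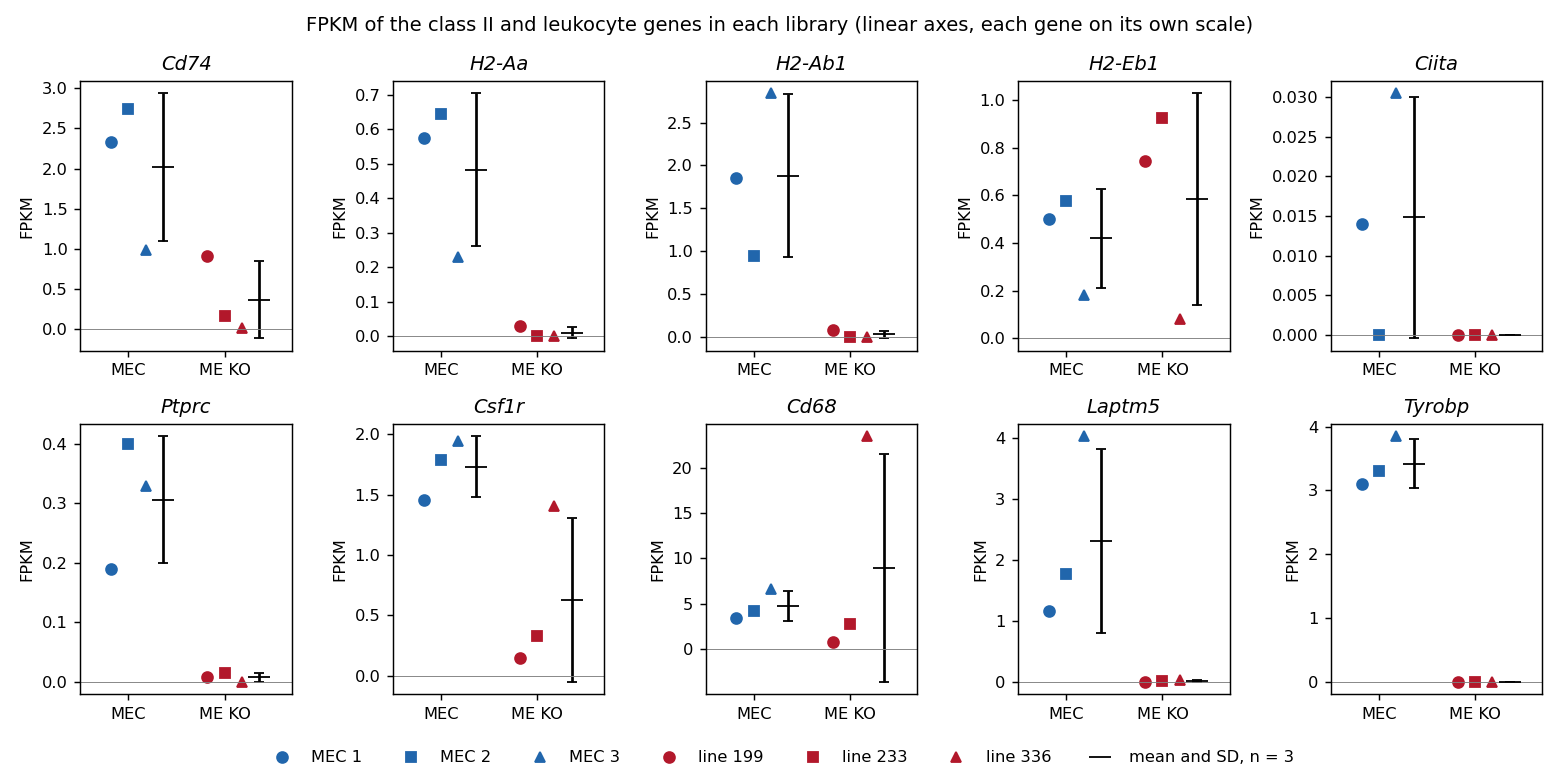
FPKM (linear vertical axes, each gene on its own scale) of the 10 genes in the 3 MEC libraries (blue) and the 3 ME KO lines (red); each symbol is 1 library, and the black dash and whiskers are the mean and SD (n = 3). The lines lie below all MEC libraries in 7 genes, while *H2-Eb1* in lines 199 and 233 and *Cd68* in line 336 (23.5 FPKM) lie above them.

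All of these genes were weakly expressed in MEC. The mean level was 4.75 FPKM for *Cd68*, 3.42 FPKM for *Tyrobp*, 2.32 FPKM for *Laptm5*, 2.02 FPKM for *Cd74*, 1.88 FPKM for *H2-Ab1* and 1.73 FPKM for *Csf1r*. The ranges of *Laptm5*, *Cd74* and *H2-Ab1* over the MEC libraries overlapped, and so did those of *Cd68* and *Tyrobp*. A lower tier held *H2-Aa* at 0.483 FPKM, *H2-Eb1* at 0.420 FPKM and *Ptprc* at 0.306 FPKM, with ranges that also overlapped, and *Ciita* was lowest at 0.0148 FPKM. *Tyrobp* stood above only 42.5% to 45.3% of the entries with a value in the same MEC library. Only *Cd74*, *Csf1r*, *Cd68*, *Laptm5* and *Tyrobp* reached the mean of 1 FPKM needed for the test, and all but *Cd68* passed through the group in which they were high. On the log2(FPKM + 1) scale a gene below 0.682 FPKM in MEC cannot fall by the required 0.75, which covers *H2-Aa*, *H2-Eb1*, *Ptprc* and *Ciita*.

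*Cd74*, the invariant chain, was 2.32, 2.74 and 0.979 FPKM in MEC 1, 2 and 3 and 0.914, 0.160 and 0.0183 FPKM in lines 199, 233 and 336. The groups did not overlap, but line 199 lay just under MEC 3, and the lines ranged from 45.4% to 0.906% of the MEC mean. MEC averaged 2.02 ± 0.922 FPKM and the lines 0.364 ± 0.482 FPKM (SD, n = 3). The log2 fold change on log2(FPKM + 1) was -1.15 (SE 0.38) with an adjusted p of 0.112 by limma, which missed the threshold. The adjusted p was between 0.0229 and 0.288 over the alternatives, and without line 199 the gene was called (log2 fold change -1.42, adjusted p = 0.0445 by limma). The exact permutation test (two-sided) gave p = 0.1, the smallest that 3 against 3 libraries allows.

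*H2-Ab1*, the beta chain of the A molecule, was 1.85, 0.940 and 2.84 FPKM in MEC 1, 2 and 3, 0.0802 FPKM in line 199 and listed at 0 in lines 233 and 336. Its partner *H2-Aa*, the alpha chain, was 0.574, 0.645 and 0.230 FPKM in MEC, 0.0279 FPKM in line 199 and listed at 0 in lines 233 and 336. Both chains of the A molecule were thus near 0 in the lines, and line 199 kept 4.27% and 5.78% of the MEC mean. *H2-Ab1* had a mean of 0.953 FPKM and so was tested only with no filter on low values. In that fit its log2 fold change was -1.43 (SE 0.26) with an adjusted p of 0.0355 by limma, and that of *H2-Aa* was -0.54 (SE 0.11) with an adjusted p of 0.0537. Of the 21813 entries in that fit, 3.82% were called lower.

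*H2-Eb1*, the beta chain of the E molecule, did not follow. It was 0.501, 0.575 and 0.183 FPKM in MEC 1, 2 and 3 and 0.743, 0.927 and 0.0813 FPKM in lines 199, 233 and 336. Lines 199 and 233 stood at 177% and 221% of the MEC mean and line 336 at 19.4%, so the groups overlapped in both directions. With no filter its log2 fold change was 0.13 (SE 0.25) with an adjusted p of 0.788 by limma, and the exact permutation test (two-sided) gave p = 0.6. At most 0.514% of the 50-base stretches of the class II chain transcripts recurred in another gene, and none of those of *H2-Eb1* did. C57BL/6 mice lack a working alpha chain for the E molecule, and *H2-Ea-ps* was listed at 0 in each of the 6 libraries.

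*Ciita* was 0.0140 and 0.0305 FPKM in MEC 1 and 3 and listed at 0 in MEC 2 and in the 3 lines. Its groups overlapped at 0, and a value this small cannot show a difference in either direction. *H2-Eb1* had a value in each library with *Ciita* listed at 0, in MEC 2 as in the lines. Of the MEC libraries, MEC 2 held the highest *Cd74*, *H2-Aa* and *H2-Eb1* but the lowest *H2-Ab1*. With *Ciita* this near 0, how class II levels stood to it could not be read and was not tested.

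*Tyrobp*, the signaling adaptor of myeloid cells, had the smallest adjusted p of the 5 genes tested. It was 3.11, 3.31 and 3.85 FPKM in MEC 1, 2 and 3 and listed at 0 in all 3 lines. No fold can be given against 0, and the fitted log2 fold change of -2.14 (SE 0.22, adjusted p = 0.00381 by limma) depends on the pseudocount. The call held under each of the 13 alternatives in which the gene was tested, with adjusted p between 0.00118 and 0.0262. Among 16132 entries above 0 in every MEC library, 1.77% were listed at 0 in all lines.

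*Laptm5* was 1.16, 1.77 and 4.03 FPKM in MEC 1, 2 and 3 and 0.00772, 0.0200 and 0.0371 FPKM in lines 199, 233 and 336. The highest line held 1.60% of the MEC mean, and the MEC libraries themselves differed 3.48-fold. The gene was called lower with a log2 fold change of -1.61 (SE 0.36, adjusted p = 0.0416 by limma). The direction was the same under every alternative, but leaving out any 1 of the 6 libraries ended the call, with adjusted p between 0.0523 and 0.113.

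*Ptprc*, the common leukocyte antigen, was 0.190, 0.399 and 0.329 FPKM in MEC 1, 2 and 3 and 0.00793, 0.0146 and 0 FPKM in lines 199, 233 and 336. The lines held at most 4.79% of the MEC mean. With no filter its log2 fold change was -0.37 (SE 0.06) with an adjusted p of 0.0321 by limma, under the fold threshold that so low a gene cannot reach. With a pseudocount of 0.1 and no filter, an alternative chosen after seeing the data, *Ptprc*, *H2-Aa*, *H2-Ab1*, *Laptm5* and *Tyrobp* were called lower, 5 of the 10 against 5.26% of all entries.

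*Csf1r*, the receptor for CSF1 and IL34, was 1.46, 1.79 and 1.95 FPKM in MEC 1, 2 and 3 and 0.152, 0.333 and 1.41 FPKM in lines 199, 233 and 336. Line 336 lay just under MEC 1, at 81.2% of the MEC mean, while lines 199 and 233 held 8.77% and 19.3%. The log2 fold change of -0.82 (SE 0.34, adjusted p = 0.177 by limma) missed the threshold, and without line 336 it was -1.14 with an adjusted p of 0.038. *Csf1r* shares 873 exonic bases, 15.1% of its own, with *Hmgxb3* on the opposite strand, and the sources do not say whether reads were counted by strand. *Hmgxb3* was 10.4 to 11.0 FPKM in MEC and 11.8, 12.3 and 14.6 FPKM in lines 199, 233 and 336, and its part in the *Csf1r* values was not tested.

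*Cd68*, the lysosomal glycoprotein, was 3.46, 4.21 and 6.59 FPKM in MEC 1, 2 and 3 and 0.771, 2.73 and 23.5 FPKM in lines 199, 233 and 336. Line 336 stood at 493% of the MEC mean and line 199 at 16.2%, so the lines spread to both sides of MEC. Its log2 fold change was -0.04 (SE 0.92, adjusted p = 0.983 by limma), and the sign of that value changed with the library left out, from -1.12 without line 336 to 0.77 without line 199. *Cd68* and *Csf1r* were the only 2 of the 10 genes above 1 FPKM in line 336, where *Tyrobp* was listed at 0 and *Laptm5* was 0.0371 FPKM.

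**Figure D2:**
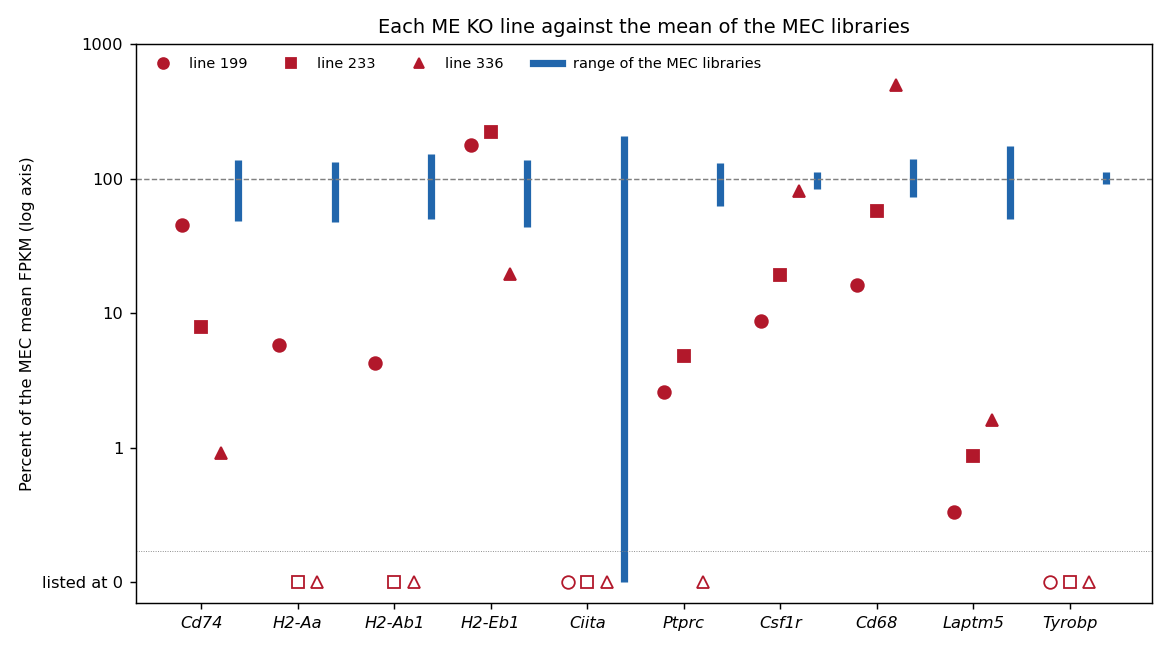
FPKM of lines 199 (circles), 233 (squares) and 336 (triangles) as a percentage of the MEC mean (log axis; open symbols on the bottom line are listed at 0), with the range of the MEC libraries as blue bars (for *Ciita* the bar reaches 0). *Laptm5* lies at 1.60% or less and *Tyrobp* at 0 in all lines, whereas *H2-Eb1* in lines 199 and 233 and *Cd68* in line 336 lie above 100%.

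Line by line, 8 of the 10 genes were below all MEC libraries and 1 was above them in each of lines 199, 233 and 336. Of all entries above 0 in some library, 31.4%, 31.9% and 31.5% were below all MEC libraries in these lines, and 35.3%, 31.1% and 32.4% were above them. The gene above MEC was *H2-Eb1* in lines 199 and 233 and *Cd68* in line 336. Of the genes below all MEC libraries, those lower than the MEC mean by more than 1 on the log2(FPKM + 1) scale numbered 5 in line 199, 5 in line 233 and 4 in line 336, against 7.55%, 8.52% and 8.9% of entries. *H2-Ab1*, *Laptm5* and *Tyrobp* were among them in every line, joined by *Csf1r* and *Cd68* in line 199, *Cd74* and *Csf1r* in line 233 and *Cd74* in line 336. These values rest on 1 library per line and carry no test.

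The MEC libraries also differed, and most genes of each kind kept 1 order, which was not the same for class II and leukocyte genes. *Cd74*, *H2-Aa* and *H2-Eb1* were highest in MEC 2 and lowest in MEC 3. *Csf1r*, *Cd68*, *Laptm5* and *Tyrobp* were lowest in MEC 1 and highest in MEC 3. The exceptions were *H2-Ab1* and *Ciita*, highest in MEC 3, and *Ptprc*, lowest in MEC 1 but highest in MEC 2. *H2-Ab1* was lowest in MEC 2, where its partner *H2-Aa* was highest. No test of these orders was made, since each preparation gave 1 library.

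Few of the other genes of the class II pathway were called. Of 17 entries in the table, 12 were tested, 2 were called lower (7.26% of all genes tested) and 10 were not called. The median log2 fold change of the 12 was -0.09 beside 0.01 over all genes tested. *Ctss*, cathepsin S, which trims the invariant chain in antigen-presenting cells, was 4.65, 6.19 and 8.91 FPKM in MEC, 0.0440 FPKM in line 199 and listed at 0 in lines 233 and 336 (log2 fold change -2.86, SE 0.27, adjusted p = 0.00297 by limma). *H2-DMb1*, a chain of the peptide exchange factor, was 2.87, 3.14 and 4.75 FPKM in MEC and 0.859, 0.465 and 0.155 FPKM in the lines (log2 fold change -1.62, SE 0.29, adjusted p = 0.0207 by limma). Its partner chain *H2-DMa* was 0.783, 0.651 and 1.18 FPKM in MEC and 0.820, 0.645 and 0.427 FPKM in lines 199, 233 and 336. The groups overlapped in *H2-DMa*, which was under the mean needed for the test. In *Ctss* and *H2-DMb1* every line lay below every MEC library. Both of these called genes reached the mean of 1 FPKM through MEC alone, so a fall was selected for. *H2-DMb1* was not called without MEC 1, MEC 2 or MEC 3 (adjusted p between 0.0628 and 0.0769 by limma). *Ctsl*, cathepsin L, was 209 to 233 FPKM in MEC and 172 to 440 FPKM in the lines, and *Lgmn*, legumain, was 25.4 to 34.2 FPKM and 29.3 to 68.4 FPKM. Neither was called, although *Ctsl* was called higher without line 233 (adjusted p = 0.0339 by limma). The factors of the X and Y boxes, *Rfx5*, *Rfxap*, *Rfxank*, *Creb1*, *Nfya*, *Nfyb* and *Nfyc*, were tested and not called, with log2 fold changes between -0.57 and 0.17. *Rfx5* was 7.35, 6.31 and 9.84 FPKM in MEC and 5.43, 5.57 and 3.82 FPKM in lines 199, 233 and 336, so that every line was below every MEC library (adjusted p = 0.167 by limma).

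The axis that leads from interferon gamma to *Ciita* was expressed in both groups apart from its ligand. *Ifng* was listed at 0 in each library. Of 9 tested genes, 1 was called lower (7.26% of all genes tested) and 8 were not called, with a median log2 fold change of -0.43. The called gene was the interferon-induced GTPase *Gbp2*, at 22.2, 20.0 and 39.2 FPKM in MEC and 5.66, 9.10 and 2.85 FPKM in lines 199, 233 and 336 (log2 fold change -2.08, SE 0.41, adjusted p = 0.0296 by limma), and the call was lost without MEC 1, MEC 2, MEC 3 or line 336 (adjusted p between 0.0572 and 0.104). The receptor chain *Ifngr1* was 26.5 to 35.5 FPKM in MEC and 16.8 to 35.1 FPKM in the lines, and the kinase *Jak1* was 41.6 to 46.9 FPKM and 26.7 to 32.0 FPKM. *Jak1* did not overlap between groups, yet its log2 fold change of -0.54 was under the fold threshold (adjusted p = 0.0594 by limma).

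Class I genes and neighbours of the class II region, taken as 1 list, were lower in more of their members. All 14 were tested, with a median log2 fold change of -1.44. Of these, 7 were called lower (7.26% of all genes tested), most of them genes of class I presentation. This count fell to 2 or 3 without MEC 1, MEC 2, MEC 3 or line 336. In these fits between 251 and 673 of all 12461 genes tested were called lower. *H2-K1*, a class I heavy chain, was 428, 471 and 633 FPKM in MEC and 77.0, 202 and 105 FPKM in lines 199, 233 and 336 (log2 fold change -2.09, SE 0.37, adjusted p = 0.0205 by limma). The peptide transporter chain *Tap2* was 20.1 to 27.0 FPKM in MEC and 2.53 to 3.60 FPKM in the lines, and the immunoproteasome subunits *Psmb8* and *Psmb9* were also called, with log2 fold changes of -2.82 and -2.42. *H2-K1* and *Psmb8* were not called without MEC 1, MEC 2, MEC 3 or line 336, nor *Psmb8* without line 233, with adjusted p between 0.0622 and 0.122 by limma. *H2-K1* and *Tap2* kept values above 2 FPKM in each line, whereas *Psmb9* was 0.515 FPKM in line 336. *B2m*, the light chain of class I, was 1011 to 1940 FPKM in MEC and 360 to 908 FPKM in the lines and was not called (adjusted p = 0.0978 by limma), except without line 233 (adjusted p = 0.0403). *Brd2*, a chromatin reader encoded in the class II region, was 64.5 to 73.7 FPKM and 59.6 to 82.4 FPKM and was not called. *Rxrb*, *Ring1* and the joint entry of *Hsd17b8* and *Slc39a7* were not called either. Every line was below every MEC library for *Ring1* and above for *Hsd17b8* (38.1 to 45.5 FPKM against 33.1 to 35.7 FPKM). *Notch4* was called lower, at 3.30 to 5.76 FPKM in MEC and 0.0110 to 0.769 FPKM in the lines (adjusted p = 0.0129 by limma). Its call held under 11 of 13 alternatives. *Notch4* reached the mean of 1 FPKM through MEC alone, so a fall was selected for.

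Other leukocyte markers were lower in the lines for part of the lists. Among 19 pan-leukocyte entries, 14 had every line below every MEC library (16.7% of all entries) and 1 had every line above (13%). Their summed level was 125 to 208 FPKM in MEC and 23.3 to 57.3 FPKM in the lines. *Cytip* made up the largest part of the MEC sums, and *Itgb2* gave 44.1 FPKM of the sum in line 233. Of 7 tested, 3 were called lower (7.26% of all genes tested) and 4 were not called. The 3 called, *Cytip*, *Lcp1* and *Fcer1g*, reached the mean of 1 FPKM through MEC alone, so a fall was selected for. *Cytip*, an adhesion regulator of blood cells, was 76.2, 74.2 and 157 FPKM in MEC and 0.102, 0 and 0.404 FPKM in the lines (log2 fold change -6.39, SE 0.33, adjusted p = 0.000715 by limma). *Lcp1*, L-plastin, was 14.5, 23.7 and 11.1 FPKM in MEC and at most 0.542 FPKM in the lines, and *Fcer1g*, an adaptor that works beside TYROBP, was 4.40, 2.70 and 5.22 FPKM and at most 0.0428 FPKM, and both were called. *Spi1*, which encodes PU.1, was 0.713, 0.483 and 1.73 FPKM in MEC and listed at 0 in the lines. The MEC means of *Cytip* (103 FPKM) and *Lcp1* (16.4 FPKM) stood far above those of *Ptprc* (0.306 FPKM) and *Spi1* (0.975 FPKM). Which cells carried *Cytip* and *Lcp1* was not tested. The entry with every line above MEC was *Itgb2*, the beta chain of leukocyte integrins, at 2.36, 2.55 and 2.21 FPKM in MEC and 2.57, 44.1 and 3.87 FPKM in lines 199, 233 and 336. It was not called (adjusted p = 0.348 by limma), and *Lsp1*, at 4.19 to 8.36 FPKM in MEC and 3.83 to 23.3 FPKM in the lines, was not called either.

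Most of the macrophage and dendritic cell list was lower in the lines. Every line was below every MEC library in 21 of its 30 entries, against 16.7% of all entries above 0 in some library. *Flt3* went the other way, with every line (0.0661 to 1.24 FPKM) above every MEC library (0.00493 to 0.0649 FPKM). The groups overlapped in *Zbtb46*, *Xcr1*, *Clec10a*, *Mertk*, *Ccr2*, *Lyz1* and *Csf1*, and *Cd209a* was listed at 0 in every library. Entries of the list with a value in MEC that were listed at 0 in all lines numbered 8. With no filter, 11 of 29 were called lower (3.82% of all entries), with a median log2 fold change of -0.65. Of the 8 with a mean of at least 1 FPKM, 7 were called lower, against 7.26% of all genes tested. Most of these 7 reached that mean through MEC alone, so a fall was selected for. Without MEC 2, 4 were called lower, against 279 of 12461 genes tested. The complement genes *C1qa*, at 3.06, 4.71 and 6.17 FPKM in MEC, and *C1qb*, at 2.65, 4.46 and 5.39 FPKM, were listed at 0 in all lines. *Lyz2*, lysozyme of myeloid cells, was 16.5, 19.6 and 32.9 FPKM in MEC and at most 0.0182 FPKM in the lines (log2 fold change -4.51, SE 0.28, adjusted p = 0.00094 by limma). *Adgre1*, which encodes F4/80, was 0.167, 0.293 and 0.347 FPKM in MEC and listed at 0 in the lines. *Cd14*, an endotoxin receptor, was 103, 113 and 64.7 FPKM in MEC and 6.51, 8.50 and 37.3 FPKM in the lines and was called, but not without MEC 1, MEC 2, MEC 3, line 199 or line 233 (adjusted p between 0.0704 and 0.157 by limma). The MEC mean of *Cd14* was 93.6 FPKM beside 0.269 FPKM for *Adgre1*, and which cells carried *Cd14* was not tested. The ligands of CSF1R were not lower as a pair. *Csf1* was 72.4 to 148 FPKM in MEC and 72.4 to 315 FPKM in the lines and was not called (adjusted p = 0.55 by limma). *Il34*, named after its values were seen, was 3.45, 7.29 and 4.73 FPKM in MEC and 11.2, 21.1 and 14.8 FPKM in lines 199, 233 and 336 and was called higher (log2 fold change 1.44, SE 0.31, adjusted p = 0.0378 by limma). The call of *Il34* was lost on leaving out any library but line 199 (adjusted p between 0.0681 and 0.143). In bulk RNA, fewer cells of a type and less RNA per cell cannot be told apart, and how far the 10 genes followed the number of leukocytes in a culture was not tested.

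**Figure D3:**
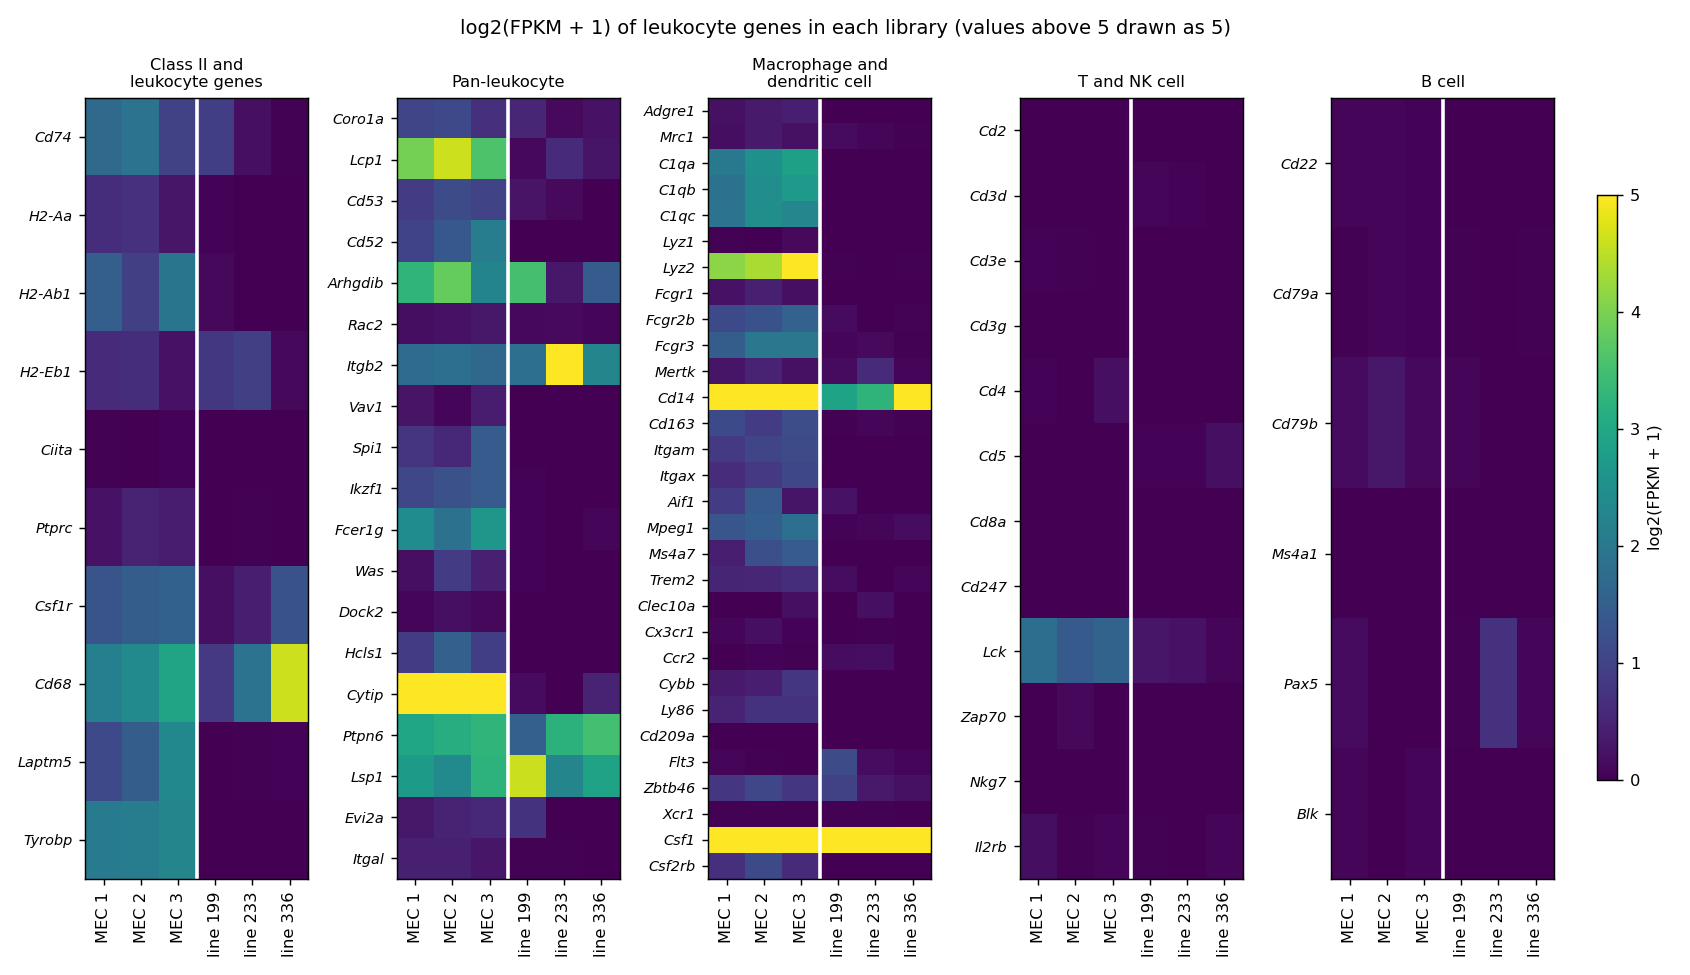
log2(FPKM + 1) of the 10 genes and of pan-leukocyte, macrophage and dendritic cell, T and NK cell, and B cell lists (rows) in the 3 MEC libraries and 3 ME KO lines (columns, parted by the white line); values above 5 are drawn as 5. Macrophage genes such as *C1qa* and *Lyz2* have values in MEC and are at or near 0 in the lines, while T and B cell genes are dark in both groups apart from *Lck* in MEC and *Pax5* in line 233.

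Lymphoid markers were close to 0 in both groups. *Cd3e* was 0.0408 and 0.0198 FPKM in MEC 1 and 2 and listed at 0 elsewhere, and *Cd79a* was at most 0.0551 FPKM. The summed level of the 12 T and NK cell genes was 1.78 to 2.74 FPKM in MEC and 0.250 to 0.329 FPKM in the lines, and most of it was *Lck*, a kinase of T cells, at 2.50, 1.66 and 2.00 FPKM in MEC and 0.226, 0.179 and 0.0627 FPKM in the lines (log2 fold change -1.40, SE 0.24, adjusted p = 0.0197 by limma). *Lck* was not called without MEC 1 or MEC 2 (adjusted p = 0.0827 and 0.0586). It reached the mean of 1 FPKM through MEC alone, so a fall was selected for. The summed level of the 6 B cell genes was 0.190 to 0.357 FPKM in MEC and 0.0836 to 0.634 FPKM in the lines, and no member reached the mean of 1 FPKM. Among 9 granulocyte and mast cell genes, summing to 1.57 to 4.29 FPKM in MEC and 2.94 to 24.5 FPKM in the lines, 2 were tested and 0 were called by limma, with 1 at an unadjusted p under 0.05. These 2 were *S100a8*, at 1.54 to 4.22 FPKM in MEC and 2.02 to 24.0 FPKM in the lines, and *S100a9*, at 0.0564 FPKM or less in MEC and 0.458 to 4.85 FPKM in the lines, and without line 233 *S100a8* was called higher (adjusted p = 0.0349 by limma).

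Lysosomal genes at large, of which *Cd68* and *Laptm5* encode blood cell members, did not follow the leukocyte genes. All 16 were tested, 1 was called lower (7.26% of all genes tested) and 15 were not called, with a median log2 fold change of -0.05. Their summed level was 1615 to 2865 FPKM in MEC and 1538 to 2508 FPKM in the lines, highest in line 336, where *Cd68* was highest too. The called gene was *Ctsb*, cathepsin B, at 114 to 166 FPKM in MEC and 39.7 to 62.2 FPKM in the lines (log2 fold change -1.34, SE 0.23, adjusted p = 0.0194 by limma), though not without MEC 1, MEC 2 or MEC 3 (adjusted p between 0.0615 and 0.0736). *Cd63*, at 496 to 622 FPKM and 385 to 762 FPKM, and *Ctsd*, cathepsin D, at 240 to 780 FPKM and 84.0 to 276 FPKM, were not called.

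Markers of other cell types in a mammary gland differed between and within the groups. The 10 luminal genes summed to 5368 to 8915 FPKM in MEC and 791 to 1966 FPKM in the lines. Of 8 tested, 6 were called lower, against 7.26% of all genes tested. *Krt8*, a luminal keratin, was 1844 to 3406 FPKM in MEC and 230 to 539 FPKM in the lines, and *Krt19* was 356 to 1057 FPKM and 7.93 to 26.8 FPKM. *Elf5*, a luminal transcription factor, was 31.5 to 44.3 FPKM and at most 0.461 FPKM, and *Pgr*, the progesterone receptor, was 8.06 to 10.8 FPKM and listed at 0; all of these were called. *Krt18*, at 2240 to 3593 FPKM and 197 to 1181 FPKM, and *Esr1*, the estrogen receptor, at 2.35 to 3.08 FPKM and 1.56 to 3.56 FPKM, were not called. Leaving out MEC 1 or MEC 2 ended the call of *Krt8* (adjusted p = 0.0596 and 0.0521 by limma), and leaving out line 199 or 233 gave one for *Krt18* (adjusted p = 0.0342 and 0.032). *Krt8* and *Krt18* thus stayed at 197 FPKM or more in each line, while *Krt19* did not. *Elf5* and *Pgr* reached the mean of 1 FPKM through MEC alone, so a fall was selected for.

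The 7 basal genes summed to 1510 to 2780 FPKM in MEC. Their sums were 2259 FPKM in line 199, 10.6 FPKM in line 233 and 58.6 FPKM in line 336. Of the 7, 2 were called lower, against 7.26% of all genes tested. These were *Myh11*, smooth muscle myosin, at 22.4 to 41.8 FPKM and at most 0.0812 FPKM, and *Oxtr*, the oxytocin receptor, at 5.05 to 25.9 FPKM and at most 0.0189 FPKM. Both reached the mean of 1 FPKM through MEC alone, so a fall was selected for. *Acta2*, smooth muscle actin, and *Krt14*, a basal keratin, were not called, with line 199 at 719 and 521 FPKM and line 233 at 1.13 and 7.36 FPKM. Without line 199, 6 of 7 were called, *Acta2* and *Krt14* included, against 1340 of 12461 genes called lower. *Oxtr* was not called without MEC 1, MEC 2, line 233 or line 336 (adjusted p between 0.0583 and 0.064 by limma). The 8 fibroblast genes summed to 99.3 to 191 FPKM in MEC, 1100 FPKM in line 199 and 2.42 and 4.22 FPKM in lines 233 and 336. Of 5 tested, 1 was called lower, against 7.26% of all genes tested. This was *Dcn*, decorin, at 3.29 to 6.62 FPKM in MEC and at most 0.366 FPKM in the lines. It too reached the mean of 1 FPKM through MEC alone. The collagen genes *Col1a1* and *Col1a2* were 600 and 408 FPKM in line 199 and 1.08 FPKM or less in lines 233 and 336, and both were called lower only without line 199 (adjusted p = 0.0015 and 0.00122 by limma). Line 199, which kept most *Cd74*, therefore also stood apart in basal and collagen genes, and their part in that value was not tested.

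The 7 endothelial genes summed to 22.4 and 26.7 FPKM in MEC 1 and 2, 3.02 FPKM in MEC 3 and 0.209 to 2.19 FPKM in the lines. Of 4 tested, 0 were called by limma and 3 had an unadjusted p under 0.05. *Pecam1* was 4.88, 6.30 and 0.784 FPKM in MEC and *Emcn* 4.81, 5.81 and 0.453 FPKM, so both were lowest in MEC 3. Without MEC 3, 3 of the 4 were called, against 457 of 12461 genes called lower. Of the 10 genes, 3 were lowest and 6 highest in that preparation. The 5 adipocyte genes summed to 9.14, 14.5 and 2.58 FPKM in MEC and 1.68 to 3.34 FPKM in the lines, with *Fabp4* at 1.28 to 11.7 FPKM and 0.0898 to 1.12 FPKM, and *Lpl* at 1.29 to 2.82 FPKM and 0.648 to 2.23 FPKM. Of these 2 tested genes 0 were called by limma and 1 had an unadjusted p under 0.05. *Fabp4* was called without MEC 3 (adjusted p = 0.0316).

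**Figure D4:**
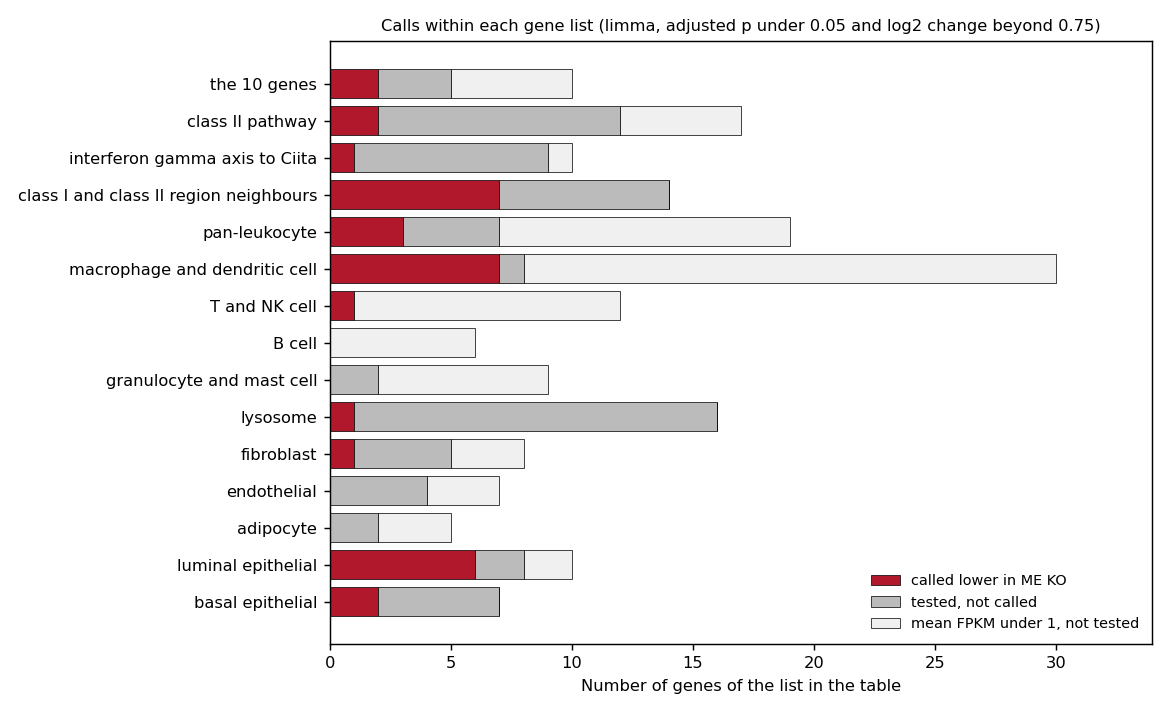
Number of genes of each list in the table (horizontal axis) that limma called lower in ME KO (red), that were tested and not called (gray) or that had a mean under 1 FPKM and were not tested (white). Of 30 macrophage and dendritic cell genes, 22 were under the filter, and those that passed did so largely through MEC; the lists were not tested against each other.

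Genes whose pattern over the 6 libraries was most like that of the class II genes were sought among 12456 others with a mean of at least 1 FPKM. The measure was the root mean square distance between log2(FPKM + 1) profiles after removing each gene's mean. Leukocyte genes under that filter, such as *Spi1*, were not compared. The class II profile averaged *H2-Eb1*, which did not follow, with genes that were lower in every line. The nearest to the mean profile of *Cd74*, *H2-Aa*, *H2-Ab1* and *H2-Eb1* were *Rcan3*, *Pank4*, *Slc20a2*, *Otud7b* and *Parp16*, at distances of 0.0544 to 0.0723. The nearest to that of *Ptprc*, *Csf1r*, *Laptm5* and *Tyrobp* were *Gm2382*, *Atp13a2*, *Pepd*, *Guca1a* and *Ndfip1*, at distances of 0.0847 to 0.111. *Rcan3* was 12.2 to 15.2 FPKM in MEC and 6.16 to 8.67 FPKM in the lines, and *Ndfip1* was 181 to 221 FPKM and 68.6 to 84.2 FPKM. *Guca1a* was 1.29 to 2.29 FPKM in MEC and 0.244 to 0.476 FPKM in the lines. The 10 nearest genes were above 0 in each line, unlike *Tyrobp*, and the measure compares differences on the log2(FPKM + 1) scale, which are small for genes of low FPKM.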

How the data were processed

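Libraries were grouped by their titles and genotypes into MEC and ME KO, 3 libraries each. The authors trimmed paired-end reads, aligned them to mm10 (GRCm38) with Bowtie2 and TopHat2 2.0.14, and computed FPKM per gene with Cufflinks 2.2.1 (versions from the submitters' processing notes). The deposited FPKM values are thereby scaled to transcript length and sequencing output. Read numbers are not part of the table, which leaves depth unknown and makes low values the least precise. No FPKM was given for 2 of its entries. Where a symbol was on several entries, the one with the highest mean was used.

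Values of log2(FPKM + 1) were compared in R 4.3.3 with limma 3.58.1 (mean-variance trend, mean FPKM of at least 1, adjustment over all genes tested). Single genes were also tested with an exact permutation test in scipy 1.17.1. The limma script was tested on simulated data. The p-values weigh the difference between the groups against the spread of these libraries within them. Genotype, tumor origin and culture differ together, so no p-value can be assigned to 1 of them. The 10 genes and the 14 lists were chosen with earlier results of these data known. From each list, at most 4 called genes were named by size of change and at most 2 uncalled genes by mean, with *Itgb2*, *Spi1*, *Adgre1*, *Cd3e*, *Cd79a*, *Mapk8* and *Mapk9* and the 5 genes nearest to each mean profile. A further gene of the rule is left out of this text. Positions came from GENCODE M21 and promoters from RefSeq. Other genes were named after their values were seen. Alternatives were a pseudocount of 0.1, no filter, a filter at 5 FPKM, upper-quartile scaling, quantile normalization, no trend, sample weights and the omission of each library in turn.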

Additional observations from a re-analysis of the deposited data

How the results depend on the processing

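No paired analysis was possible because the MEC replicates (1 to 3) and the ME KO lines (199, 233 and 336) share no number. Of the 10 genes, 5 were tested and 2 called lower (7.26% of all genes tested). With no filter all 10 were tested and 3 called lower (3.82% of all entries). A filter at 5 FPKM left only *Cd68* to test (unadjusted p over 0.05) and gave 0 calls. Quantile normalization gave 1 call, and leaving out 1 library gave 1 to 2. No filter with a pseudocount of 0.1, chosen after seeing the data, gave 5 (5.26% of all entries). *Tyrobp* was called wherever it was tested, *Laptm5* not with quantile normalization or sample weights (adjusted p = 0.127 and 0.0854 by limma), and *Cd74* also with sample weights (adjusted p = 0.0229). Genes called in all numbered 738 (501 lower) with a filter at 5 FPKM, which tested fewer genes, and 1978 (1378 lower, 600 higher) with sample weights. With 1 library left out they numbered 300 to 1886, with 251 to 1340 lower and 49 to 546 higher, fewest without MEC 1 and most without line 199. Among the other named genes, *Notch4* aside, 26 were called. Of these, 14 were called under every alternative in which they were tested, none changed direction, and 12 lost the call without some library. With a difference beyond 2 on the log2 scale in place of 1, 1 gene was below MEC in each of lines 199, 233 and 336, and with a pseudocount of 0.1, 7 in line 336. The share over all entries was not computed under these settings, so these counts have no background. Uncalled genes near 0 changed sign (log2 fold change): with quantile normalization *Cd68* (0.13), *Brd2* (-0.0144), *Cd63* (0.11), *Lpl* (0.35) and *Esr1* (0.29), with sample weights *Cd68* (0.43), *Brd2* (-0.0364) and *Esr1* (0.20), and with upper-quartile scaling *Brd2* (-0.0089). With 1 library left out *Cd68* ranged from -1.12 to 0.77, *Brd2* from -0.0669 to 0.16, *Lsp1* from -0.20 to 0.97, *Csf1* from -0.0043 to 1.05, *Cd63* from -0.30 to 0.20, *Lpl* from -0.27 to 0.21 and *Esr1* from -0.20 to 0.22. The causes were not tested. The depth behind values under 1 FPKM is unknown, and differences among them, as for *Ciita*, could not be resolved.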
